A study of Homo sapiens with 12 samples.

Results

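The untreated state of PA-1 and SK-OV3 cells was compared gene by gene in the libraries whose labels give the vehicle, DMSO, as the treatment. These were 3 PA-1 and 3 SK-OV3 libraries of the 12 libraries in the series, and no library of cells given the ATAD2 inhibitor BAY-850 entered any value below. The study asked how ovarian cancer cells respond to that inhibitor, and it used these lines as its models. PA-1 is a human line from an ovarian teratocarcinoma and was grown in DMEM, and SK-OV3 (SK-OV-3 in the labels) is a human line from an ovarian adenocarcinoma and was grown in RPMI, both with fetal bovine serum and antibiotics and both labelled as ovarian cancer cells. Each kind of tumour was represented by 1 established line in 1 medium, so that differences between the lines, the kinds of tumour and the media cannot be told apart. The design text names the libraries of a group as biological replicates without saying whether they came from separate cultures, and the p-values measure only the spread between these libraries.

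A teratocarcinoma is a germ cell tumour whose undifferentiated part, embryonal carcinoma, resembles the early embryo and uses the transcription factors of pluripotent cells. Adenocarcinomas of the ovary are epithelial tumours, and most of them express keratins and the regulators of the Mullerian duct epithelium, from which the oviduct and the uterus form. Tumour lines in general also differ in DNA methylation and in the copy number of chromosome segments, neither of which was measured here.

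The deposited values were expected counts per gene symbol from RSEM, a program that divides a read matching several genes among them, and they summed to between 34544505 and 45532273 per library. At least 1 count was found for 17425 to 18414 of the 26475 symbols, and ribosomal RNA genes held between 7.94% and 15.005% of a library's counts. The extraction protocol names oligo-dT beads, while the design text names depletion of ribosomal RNA. Replicates of a line differed by more than sampling noise in every pair (chi-square divided by its degrees of freedom ranged from 13.7 to 70.7), and each library was counted as 1 replicate. Levels are given as CPM, the counts of a gene relative to the TMM-scaled total of the library, in the order of replicates 1, 2 and 3 or as the mean ± SD of n = 3 libraries. A log2 difference is the fitted value for SK-OV3 minus PA-1, and its standard error is written SE.

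Of 16070 genes that passed the filter on low counts, 6452 were higher in SK-OV3 and 6456 were higher in PA-1 at an adjusted p under 0.05 (edgeR's quasi-likelihood test, Benjamini-Hochberg adjustment over all genes tested). That is 40.1% and 40.2% of the genes tested, and these shares are the background against which the gene groups below are read. A fitted difference of at least 4-fold together with a call was found for 2057 genes in SK-OV3 (12.8%) and 1945 in PA-1 (12.1%), and one of at least 32-fold for 864 and 700 genes. The 3 libraries of one line lay entirely above those of the other for 82.3% of the genes. The first principal component separated the lines and held 94.2% of the variance. Where a gene had to reach 10 counts in every library, which leaves out genes that are off in one line, 827 and 870 genes of 13080 were at least 4-fold higher in SK-OV3 and in PA-1.

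**Figure D1:**
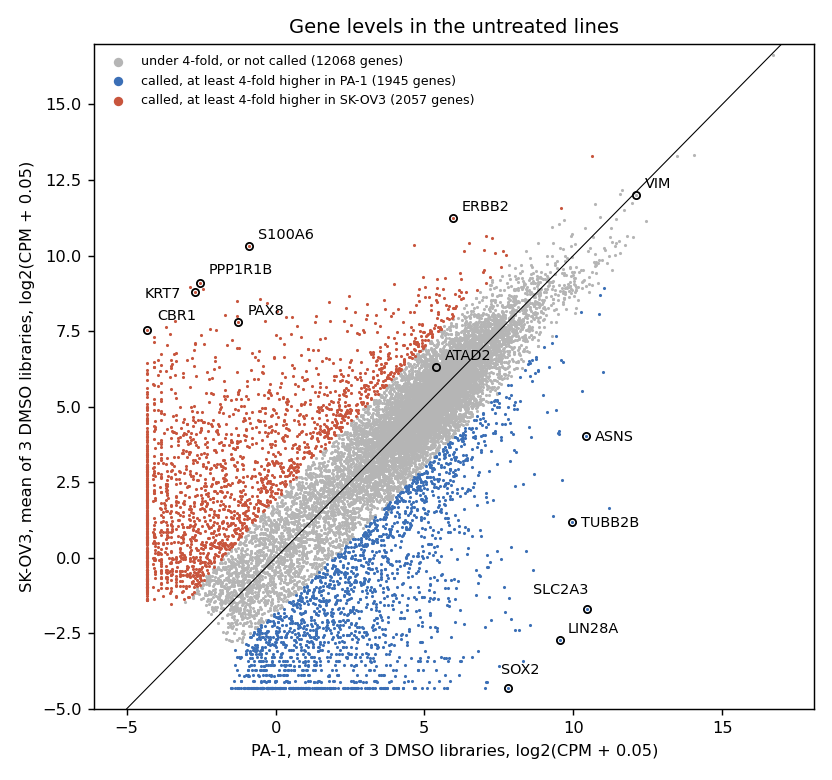
Mean level of each of the 16070 genes tested in PA-1 (x axis) and in SK-OV3 (y axis), as log2 of CPM plus 0.05, with one point per gene and the diagonal marking equal levels. Blue and red points were at least 4-fold higher in PA-1 (1945 genes) or SK-OV3 (2057 genes), and the points along the lower and left edges had no count in one line.

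The lines were first checked against the markers of their labelled origin. POU5F1 (OCT4), a core pluripotency factor, stood at 445, 418 and 370.2 CPM in PA-1 and at 6.49, 7.69 and 6.10 CPM in SK-OV3. SOX2, its partner in embryonic cells, stood at 236, 225 and 216 CPM in PA-1 and had no count in any SK-OV3 library. LIN28A, an RNA-binding protein that blocks maturation of let-7 microRNAs, reached 820.2, 751 and 709 CPM against 0.202, 0 and 0.104 CPM. The SK-OV3 libraries were low in all of these genes and did not overlap those of PA-1. The ratio of the means was 60.7 for POU5F1 (log2 difference -5.92, SE 0.10, adjusted p = 5.27e-14, edgeR's quasi-likelihood test) and 7448 for LIN28A. SOX2 was at least 2899.8-fold higher in PA-1, where the bound sets the silent line at 3 counts per library. SALL4, a zinc finger factor of germ cell tumours, was 85.9-fold higher (21.5 ± 1.71 against 0.250 ± 0.105 CPM), and DNMT3B, a de novo DNA methyltransferase, only 2.30-fold (72.8 ± 4.63 against 31.6 ± 1.86 CPM).

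SK-OV3 carried the keratins and PAX8 of its labelled origin, while some other epithelial markers were weak. KRT7, a keratin of simple glandular epithelia, stood at 479, 426 and 419 CPM in SK-OV3 and at 0.116, 0.0223 and 0.171 CPM in PA-1. KRT19 stood at 560.3, 519 and 503 CPM in SK-OV3 and at 16.6, 14.1 and 16.6 CPM in PA-1. Both were clearly separated between the lines, with ratios of 4278 and 33.5. PAX8, a factor of the Mullerian epithelium and a diagnostic marker of ovarian carcinoma, stood at 231, 216 and 224 CPM in SK-OV3 and at 0.0872, 0.201 and 0.825 CPM in PA-1 (603-fold, adjusted p = 9.51e-13, edgeR's quasi-likelihood test). EPCAM, an epithelial adhesion molecule, was 80.3-fold higher in SK-OV3 (38.3 ± 3.06 against 0.476 ± 0.138 CPM). By contrast, CDH1 (E-cadherin) reached only 6.09 ± 0.940 CPM in SK-OV3, MUC16 (the CA125 antigen) 0.740 ± 0.313 CPM, and WT1, a marker of serous carcinoma, 2.05 ± 0.0668 CPM, which was less than the 4.41 ± 0.162 CPM of PA-1. KRT8 and KRT18, the paired keratins of simple epithelia, were high in both lines, at 535 ± 27.0 and 337 ± 9.46 CPM in PA-1 and 601 ± 17.98 and 267 ± 13.98 CPM in SK-OV3.

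Most markers of cells that a pure culture should lack were near 0. Over 24 such genes of leukocytes, endothelium, erythroid cells and muscle, 13 passed the filter, 3 were called higher in SK-OV3 and 8 in PA-1, and their summed level was 142 to 153 CPM in PA-1 and 38.9 to 39.5 CPM in SK-OV3. The genes that held most of the PA-1 sum were KDR (65.1 CPM) and PECAM1 (23.7 CPM), both of endothelium, and DES, desmin of muscle (37.0 CPM). PTPRC, the pan-leukocyte CD45, was at 0 in all PA-1 libraries and at 0, 0.0796 and 0.0260 CPM in SK-OV3, and MS4A1 and HBB had no count in any library. In all, 7 of the 24 had no count in PA-1 and 9 had none in SK-OV3. The part of these genes in the other differences was not tested.

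**Figure D2:**
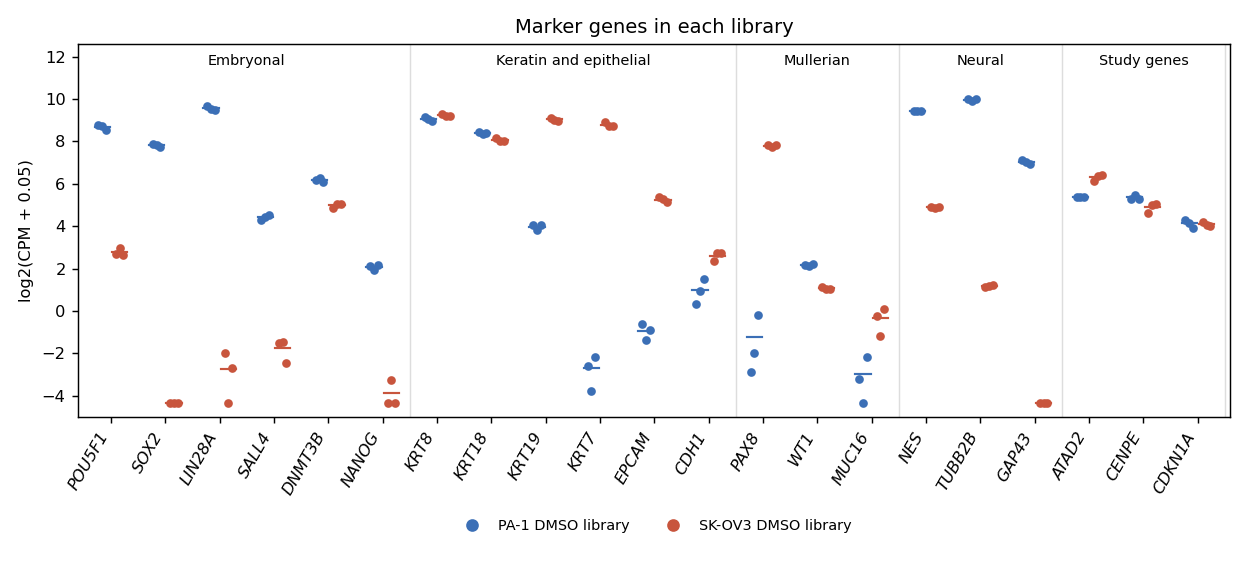
Level of 21 marker and study genes in each DMSO library as log2 of CPM plus 0.05 (points), with the horizontal bar at the log2 of the mean of 3 libraries plus 0.05, PA-1 in blue and SK-OV3 in red. SOX2 and GAP43 have no count in SK-OV3, KRT8 and KRT18 are high in both lines, and the points of CDKN1A overlap.

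Genes with no count at all in one line and at least 20 CPM in the other numbered 25 for SK-OV3 and 11 for PA-1, and at a level of at least 1 CPM they numbered 202 and 140. Among the 11 genes found only in PA-1 libraries, those with the most CPM after SOX2 were GAP43, a growth cone protein of neurons (139, 131 and 124 CPM, at least 1685-fold higher), PAX3, a neural crest and muscle factor (54.2 ± 2.12 CPM, at least 696-fold), and GSPT2, a copy of the translation termination factor GSPT1 (53.8 ± 2.62 CPM, at least 691-fold). PNMAL1, CPNE4, NFATC4, ZNF334, MUM1L1, INA and MYOCD made up the rest, between 25.2 and 50.3 CPM. Of the genes found only in SK-OV3, CBR1, a carbonyl reductase that inactivates prostaglandins and reduces anthracyclines, had the most at 194, 178 and 179 CPM, at least 2297-fold above PA-1. It was followed by HOXB6 (87.9 ± 5.00 CPM), the ligand WNT7A (74.1 ± 4.82 CPM, at least 928-fold), C19orf33 (68.7 ± 9.33 CPM), HOXB7 (68.1 ± 3.95 CPM), the kidney cadherin CDH16 (58.5 ± 3.41 CPM), the basement membrane collagen COL4A3 (49.2 ± 4.31 CPM), the transporter SLCO4A1 (44.9 ± 0.650 CPM), MAL, a protein of apical membrane traffic (43.0 ± 5.79 CPM), and ZNF486 (40.1 ± 0.821 CPM). The 3 SK-OV3 libraries were close to one another for each of these genes, and the largest SD among them was 9.33 CPM (C19orf33). Beyond these, the largest differences by the rule for named genes included TTYH1 and PTPRZ1 in PA-1, at 136 ± 6.31 and 133 ± 9.82 CPM against 1 count in SK-OV3. In SK-OV3 they included LAMA3 and UGT1A6, at 157 ± 7.44 and 142 ± 6.96 CPM against 1 count in PA-1. UGT1A6 shares most of its exons with the other UGT1A genes, and its count is uncertain to that extent.

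Pluripotency genes as a group were higher in PA-1. Of 28 tested among 36 listed, 21 were called higher in PA-1 and 3 in SK-OV3, 19 of them by at least 4-fold in PA-1, with a median log2 difference of -5.55 (-4.002 with silent genes at their bound) beside 0.00 over all genes tested. Over the 10 members with 10 counts in every library, a filter that removes genes off in one line, the median was -0.88. SFRP2, a secreted WNT antagonist (319 ± 21.2 CPM), LIN28B (55.1 ± 0.590 CPM) and PRDM14 (30.8 ± 1.66 CPM), the last a repressor that guards pluripotency, were at no more than 0.0442 CPM in SK-OV3. NANOG reached 4.27, 3.81 and 4.44 CPM in PA-1 and had 2 counts in SK-OV3, a ratio and 95% counting interval of 239.8 (66.0 to 1986). Several classical members were nearly silent in both lines. TDGF1 stood at 0.0664 CPM in PA-1, L1TD1 at 0.451, ZFP42 at 0.340 and UTF1 at 0.405 CPM, and FGF4 had no count. Against the direction of the group, KLF4, a factor of reprogramming that also acts in epithelium, was 59.9-fold higher in SK-OV3 (105 ± 3.91 against 1.75 ± 0.203 CPM, adjusted p = 2.98e-14, edgeR's quasi-likelihood test), ESRG was 6.10-fold and USP44 1.93-fold higher there.

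Neural genes went with the pluripotency genes. Of 22 tested, 19 were higher in PA-1 (16 by at least 4-fold) and 1 in SK-OV3, with a median of -4.23 (-3.77 with bounds, and -2.14 over the 11 members with 10 counts in every library). NES (nestin), a filament of neural progenitors, stood at 701, 687 and 686 CPM in PA-1 and 29.9, 28.97 and 30.1 CPM in SK-OV3. TUBB2B, a neuronal beta-tubulin that is not a member of this list, stood at 1019, 975 and 1018 CPM against 2.17, 2.23 and 2.26 CPM, a 452-fold difference. Neither gene showed any overlap between the lines. OTX2, SOX3 and ZIC1, factors of the anterior neural plate, had no count in SK-OV3 and 16.9, 17.1 and 5.90 CPM in PA-1, while PAX6 reached 11.7 CPM in PA-1. Neuronal genes of the list were divided. GAP43 and INA had no count in SK-OV3, and MAP2, a microtubule protein of neurons, was 4.44-fold higher in PA-1. TUBB3 was 2.68-fold higher in SK-OV3 (113 ± 9.26 against 42.0 ± 2.64 CPM), and DCX (no count) and STMN2 (0.0388 CPM) were near silent in PA-1 and not tested.

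Genes of the other embryonic lineages were split. Of 17 genes of endoderm, mesoderm and trophoblast, 8 were higher in SK-OV3 and 7 in PA-1, with a median of 0.37. SOX17, an endoderm factor that also marks ovarian carcinoma, stood at 50.1, 45.8 and 47.4 CPM in SK-OV3 and 0.0291, 0 and 0.0853 CPM in PA-1, and FOXA2 (6.71 ± 0.783 CPM) had no count in PA-1. GATA6 was 8.90-fold higher in SK-OV3. TFAP2C, a factor of germ cells and trophoblast, was 160.5-fold higher in PA-1 (55.6 ± 2.17 against 0.346 ± 0.0599 CPM). The endoderm genes AFP, APOA1 and GATA4 were called higher in PA-1 at levels of only 1.70, 2.08 and 2.39 CPM.

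**Figure D3:**
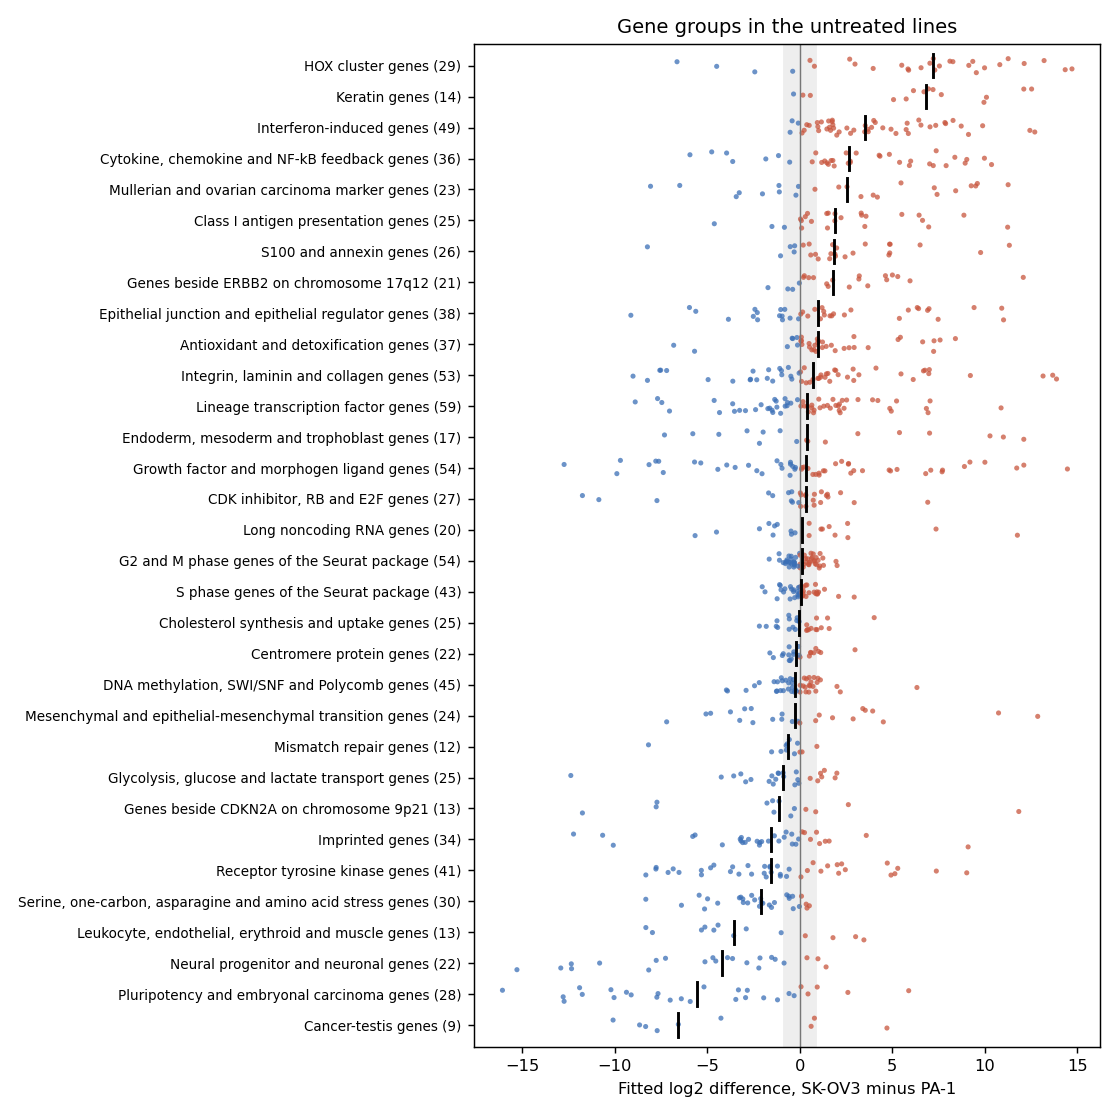
Fitted log2 difference, SK-OV3 minus PA-1, of the tested members of 32 gene groups (one point per gene, red above and blue below 0, number tested in parentheses), with the group median as a black bar and the interquartile range of all 16070 genes as a grey band. Fitted values of genes with no count in one line depend on the prior count and are not bounds. HOX genes (median 7.22) and keratins (6.84) lie to the right, and pluripotency genes (-5.55) and cancer-testis genes (-6.57) to the left.

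Keratins were mostly higher in SK-OV3. Of 14 tested, 13 were higher in SK-OV3, 11 by at least 4-fold, with a median of 6.84 (6.43 with bounds), and their summed level was 2392 to 2607 CPM against 899.7 to 962 CPM in PA-1. KRT80 (252, 247 and 253 CPM against 1.31, 1.32 and 1.08 CPM) and KRT5, a basal keratin (127, 109 and 113 CPM against 0, 0.245 and 0.0569 CPM), were high only in SK-OV3. KRT17 was 146-fold higher, KRT81 54.2-fold, and KRT14, the partner of KRT5, had no count in PA-1 and 19.4 ± 1.75 CPM in SK-OV3. Some of these genes (KRT6A, KRT14, KRT16, KRT17, KRT81 and KRT86) have near-identical copies, among which RSEM divides reads, so that their separate values are uncertain. KRT18 was called 1.26-fold higher in PA-1, and the 1.12-fold difference of KRT8 lost its call when the trend of counts on GC content was removed.

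The other epithelial genes did not follow one line. Of 38 junction genes and epithelial regulators tested, 19 were higher in SK-OV3 and 14 in PA-1, with a median of 0.96 (0.0063 over the 26 with 10 counts in every library). EHF, an epithelial transcription factor, stood at 18.4, 21.4 and 21.9 CPM in SK-OV3 and 0, 0 and 0.541 CPM in PA-1. In the other direction, CLDN6, an embryonic claudin, stood at 421, 373 and 406 CPM in PA-1 and 0.809, 0.822 and 0.493 CPM in SK-OV3, a 565-fold difference. OCLN (occludin, 5.71-fold), PPL (periplakin, 5.37-fold), PRSS8 (50.2-fold) and TJP3 (14.6-fold) were also higher in PA-1. GRHL2, a regulator of epithelial junctions, was near 0 in both lines, at 0.0664 CPM in PA-1 and 0.0871 CPM in SK-OV3.

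Mesenchymal genes were divided as well, with 10 of 24 higher in SK-OV3, 13 higher in PA-1 and a median of -0.25. VIM (vimentin) was abundant in both lines, at 4397, 4353 and 4462 CPM in PA-1 and 4205, 4063 and 4041 CPM in SK-OV3, and its 1.07-fold difference lost its call under most alternatives, among them scaling by library size only. The regulators of epithelial-mesenchymal transition were exchanged between the lines. SNAI1 (22.4 ± 1.01 against 3.62 ± 0.700 CPM) and ZEB2 (61.7 ± 2.36 against 6.49 ± 0.261 CPM) were higher in PA-1, while SNAI2 (178 ± 5.42 against 16.7 ± 2.24 CPM), ZEB1 (68.4 ± 6.69 against 37.6 ± 3.48 CPM) and TWIST2 (24.3 ± 1.92 CPM against 0) were higher in SK-OV3. CDH2 (N-cadherin) was 5.80-fold higher in PA-1, at 230.3, 254 and 235 CPM, and FN1 (fibronectin) was 15.4-fold higher in SK-OV3, at 1234, 1435 and 1468 CPM. THY1, a surface glycoprotein of neurons and fibroblasts, was 148-fold and PDGFRB 28.4-fold higher in PA-1.

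Of 23 Mullerian and ovarian carcinoma markers tested, 14 were higher in SK-OV3, 13 by at least 4-fold, and 7 were higher in PA-1, with a median of 2.55 that became -0.13 when genes off in one line were removed by the filter of 10 counts in every library. MECOM, a zinc finger factor often gained in ovarian carcinoma, stood at 232, 265 and 278 CPM in SK-OV3 and 0.611, 0.267 and 0.199 CPM in PA-1. ESR1, the oestrogen receptor alpha, stood at 48.5, 54.9 and 49.8 CPM in SK-OV3 and had 2 counts in PA-1. Neither gene overlapped between the lines, and the ratio of the means was 719 for MECOM. SLPI (349.7-fold) and MSLN (mesothelin, 15.7-fold) were also higher in SK-OV3. WFDC2 (HE4), a serum marker of ovarian cancer, was low in both lines at 0.705 ± 0.256 and 0.671 ± 0.185 CPM (adjusted p = 0.891, edgeR's quasi-likelihood test), FOLR1 stood at 17.8 ± 1.35 and 15.4 ± 0.774 CPM, and SPP1 (osteopontin) was 2.18-fold higher in PA-1.

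HOX genes encode the factors that set position along the body axis and lie in ordered clusters on separate chromosomes. PA-1 was nearly without them. Of 29 tested, 24 were higher in SK-OV3, 23 by at least 4-fold, with a median of 7.22 (5.51 with bounds, and 0.68 over the 4 with 10 counts in every library), and the summed level of all 39 listed was 16.3 to 18.2 CPM in PA-1 and 545 to 579 CPM in SK-OV3. HOXB6 stood at 93.6, 84.2 and 85.9 CPM in SK-OV3, HOXB7 at 72.3, 67.6 and 64.5 CPM and HOXB5 at 33.4, 29.8 and 29.4 CPM, and none had a count in PA-1. HOXB8 (53.9 ± 2.60 CPM) and HOXD8 (29.6 ± 1.47 CPM) had 1 count each in PA-1. The exceptions were few. HOXA2 was at 0.707 ± 0.181 and 1.23 ± 0.158 CPM (adjusted p = 0.0755, edgeR's quasi-likelihood test), and HOXC13 (1.18 ± 0.184 CPM), HOXA7 (1.56 ± 0.273 CPM) and HOXA4 (0.850 ± 0.121 CPM) were higher in PA-1 at low levels. HOTAIR had no count in any library.

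Among 59 other lineage transcription factors, 31 were higher in SK-OV3 and 25 in PA-1 (median 0.42). MYCN, the MYC family member of embryonic tissue, stood at 81.5, 82.5 and 75.9 CPM in PA-1 and 0.0758, 0.398 and 0.0260 CPM in SK-OV3, while MYC itself was 2.04-fold higher in SK-OV3 (219 ± 10.99 against 107 ± 2.67 CPM). NR6A1, the germ cell nuclear factor (20.3-fold), and LEF1, an effector of WNT signalling (137-fold), were higher in PA-1. RUNX1 (31.0-fold), NR2F2 (109-fold), AHR, the dioxin receptor (18.6-fold), and FOXQ1 (22.7 ± 1.13 CPM, 1 count in PA-1) were higher in SK-OV3.

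Imprinted genes, which are expressed from the maternal or the paternal copy only and depend on DNA methylation, were mostly higher in PA-1 (24 of 34, 16 by at least 4-fold, median -1.53). DLK1, a paternally expressed ligand of the Notch family, stood at 73.1, 76.8 and 75.7 CPM in PA-1 and 0, 0.133 and 0 CPM in SK-OV3. PEG10, derived from a retrotransposon, stood at 355, 358 and 386 CPM against 18.9, 21.1 and 20.3 CPM. SNRPN was 9.05-fold higher in PA-1, and its neighbours NDN (15.7 ± 1.605 CPM) and MAGEL2 (3.54 ± 0.162 CPM) had no count in SK-OV3. MEST (8.94-fold), H19 (4.54-fold) and IGF2 (6.87-fold) followed the same direction, the last at only 3.26 CPM. Against it went NLRP2 (25.8 ± 0.437 against 0.0417 ± 0.0364 CPM), IGF2R (2.60-fold) and KCNQ1OT1 (3.00-fold). PEG3 was near 0 in both lines.

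Cancer-testis genes, which are silent outside the germ line and reappear in many tumours, were largely absent, and only 9 of 40 listed passed the filter. Of these, 6 were higher in PA-1 at low levels (DAZL 3.55 ± 1.15 CPM, TEX15 3.84 ± 0.600 CPM) and 1 in SK-OV3, with a median of -6.57 (-3.13 with bounds, and 2.77 over the few that reach 10 counts in every library). That one was PRAME, at 65.7, 72.0 and 66.4 CPM in SK-OV3 and 2.88, 2.23 and 2.73 CPM in PA-1. The summed level of the list was 15.4 to 17.5 CPM in PA-1 and 68.0 to 73.8 CPM in SK-OV3. The list did not include the SPANX genes, so its direction does not stand for them. All 5 SPANX genes tested were at least 4-fold higher in SK-OV3, with a median of 9.04 (5.50 with bounds).

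Receptor tyrosine kinases, which pass signals of growth factors into the cell, were used differently by the lines. Of 41 tested, 26 were higher in PA-1 (15 by at least 4-fold) and 14 in SK-OV3 (10 by at least 4-fold), with a median of -1.55, while the summed level was higher in SK-OV3 (3930.4 to 4495 against 2074 to 2146 CPM) and most of that sum was ERBB2. ERBB2 (HER2), the receptor amplified in a share of breast and gastric cancers, stood at 2154, 2490.0 and 2628 CPM in SK-OV3 and 61.3, 60.4 and 63.1 CPM in PA-1, a log2 difference of 5.30 (SE 0.08, adjusted p = 2.36e-14, edgeR's quasi-likelihood test). EGFR was 4.07-fold higher in SK-OV3 at 56.7, 70.4 and 81.9 CPM, and ERBB4 (10.8 ± 0.999 CPM) had 2 counts in PA-1, whereas ERBB3 was 6.98-fold higher in PA-1. MET was 5.52-fold, its relative MST1R 30.8-fold and KIT 160.4-fold higher in SK-OV3. PA-1 was higher in all 4 fibroblast growth factor receptors, with FGFR1 at 446, 445 and 463 CPM against 119.9, 134 and 131 CPM and the largest ratio for FGFR2 (9.79-fold). It was also higher in KDR (25.03-fold), TIE1 (40.2-fold) and TEK (231-fold), receptors of endothelium, and in ROR2, a receptor for WNT5A (116-fold).

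The ligands were divided too, with 26 of 54 higher in SK-OV3 and 22 in PA-1 (median 0.34, or -0.22 over those with 10 counts in every library). DKK1, a WNT antagonist, stood at 180.1, 162 and 167 CPM in SK-OV3 and 0, 0.0223 and 0.0853 CPM in PA-1. WNT7B stood at 133, 129 and 132 CPM and 0.465, 0.290 and 0.0569 CPM. TGFA, a ligand of EGFR, was 232-fold, EREG 30.1-fold and FGF2 4.80-fold higher in SK-OV3. PTN (pleiotrophin) stood at 245, 246 and 233 CPM in PA-1 and 1.34, 1.38 and 0.935 CPM in SK-OV3. FST (follistatin, 132 ± 2.49 CPM) and GREM1 (111 ± 4.74 CPM), which bind activin and BMPs, were 859.9-fold and 221-fold higher in PA-1, as were BMP4 (15.4-fold), EGF (171-fold) and LEFTY2 (38.7-fold). HBEGF and NRG1 overlapped between the lines.

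The genes beside ERBB2 on chromosome 17, a segment gained as a block in many breast cancers, were read in their order along GRCh38. A run of 10 neighbouring tested genes from NEUROD2 to IKZF3 (chr17:39603536-39864188) was called at least 4-fold higher in SK-OV3 without a gap, namely NEUROD2, PPP1R1B, STARD3, TCAP, PNMT, PGAP3, ERBB2, MIEN1, GRB7 and IKZF3. PPP1R1B (DARPP-32), an inhibitor of protein phosphatase 1, stood at 571, 533 and 534 CPM in SK-OV3 and 0.145, 0.134 and 0.0853 CPM in PA-1, the largest fold in the run (4494). MIEN1 stood at 344, 373 and 367 CPM against 30.8, 26.9 and 27.1 CPM, and STARD3, a cholesterol transporter of endosomes, at 282, 287 and 278 CPM against 47.5, 44.5 and 40.4 CPM. GRB7, an adaptor that binds ERBB2, was 26.1-fold higher, and PGAP3 9.16-fold. NEUROD2 and IKZF3 stayed below 1 CPM in SK-OV3 (0.747 and 0.514 CPM). On one side the adjacent genes GSDMB (-0.39) and ORMDL3 (0.20) had log2 differences near 0, and ORMDL3 lost its call when trends on GC content or length were removed. Further out the log2 differences were mixed, with PSMD3 (1.53), THRA (1.78) and NR1D1 (2.22, called at least 4-fold) above MED24 (0.48) and CASC3 (0.14). On the other side CDK12 was 2.74-fold higher and MED1 and FBXL20 stood at 0.74 and -0.02 on the log2 scale. Beyond them LASP1 (2.01, called at least 4-fold) and CWC25 (1.73) lay above 0, and STAC2 (-1.72) and RPL19 (-0.65) below. Copy number was not measured here.

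**Figure D4:**
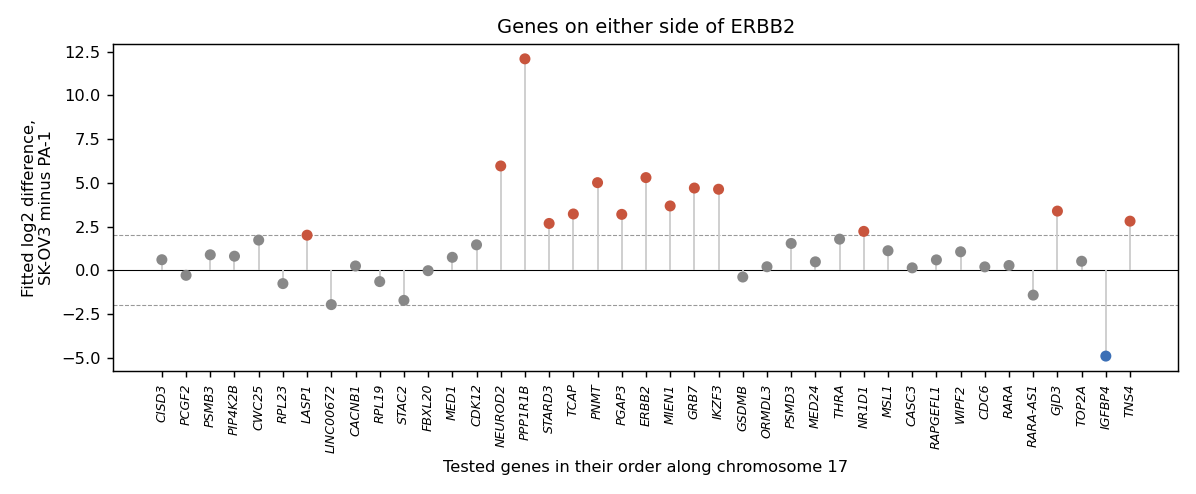
Fitted log2 difference, SK-OV3 minus PA-1, of the tested genes on either side of ERBB2, in their order along chromosome 17. Red and blue points were called at least 4-fold higher in SK-OV3 and PA-1, and the dashed lines mark 4-fold. The 10 genes from NEUROD2 to IKZF3 form an unbroken red run.

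Genes around CDKN2A on chromosome 9p21, a segment often lost in tumours, gave a different picture. CDKN2A, which encodes the cell cycle inhibitors p16 and ARF, stood at 11.63, 8.63 and 13.5 CPM in PA-1 and had no count in SK-OV3, and CDKN2B had no count there and 0.682 CPM in PA-1. MTAP, the adjacent methylthioadenosine phosphorylase, stood at 27.0, 31.6 and 33.04 CPM in SK-OV3, 1.26-fold above PA-1, a call that was lost when the trend on length was removed. Thus the neighbour was present in the line without CDKN2A reads. Of 13 genes tested in this segment, 9 were higher in PA-1 and 4 in SK-OV3 (median -1.12), and TUSC1 (11.97 ± 0.754 CPM) had no count in PA-1.

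Other regulators of the cell cycle were divided between the lines, a few of them with large differences. CCND2 (cyclin D2) stood at 257, 266 and 269.7 CPM in PA-1 and 0.0505, 0.318 and 0.0519 CPM in SK-OV3, a 1882-fold difference, while CCND1 was 1.37-fold higher in PA-1 (537 ± 9.32 against 392 ± 12.9 CPM). CDKN2C, the inhibitor p18, stood at 37.8, 36.5 and 37.8 CPM in SK-OV3 and 0.291, 0.357 and 0.256 CPM in PA-1. CCNE2 (7.68-fold), E2F7 (4.62-fold) and E2F1 (2.82-fold) were higher in SK-OV3, CDKN1B (p27) was 2.76-fold higher in PA-1, and RB1 overlapped at 89.5 ± 5.43 and 94.0 ± 9.65 CPM. Of the 27 genes of this group, 14 were higher in SK-OV3 and 9 in PA-1 (median 0.32). At least 4-fold differences were found for 3 in SK-OV3 and 3 in PA-1, beside 12.8% and 12.1% of all genes tested.

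Genes of cell cycle arrest and apoptosis were read beside these. BBC3 (PUMA), which promotes apoptosis, was 12.7-fold higher in PA-1 (34.0 ± 1.85 against 2.67 ± 0.298 CPM), CCNG1 6.28-fold, TIGAR 6.44-fold and BTG2 4.44-fold, and EDA2R (7.95 ± 0.677 CPM) had no count in SK-OV3. CDKN1A (p21) stood at 19.7, 17.8 and 15.2 CPM in PA-1 and 18.2, 16.6 and 15.999 CPM in SK-OV3, overlapping values with an adjusted p of 0.668 (edgeR's quasi-likelihood test), and MDM2 stood at 53.2 ± 1.72 and 61.1 ± 1.03 CPM, a call lost without the trend on GC content. PHLDA3, a repressor of AKT, was 6.47-fold higher in SK-OV3.

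ATAD2, the bromodomain protein that BAY-850 binds, stood at 41.8, 41.7 and 41.3 CPM in PA-1 and 70.7, 83.5 and 84.8 CPM in SK-OV3. Every SK-OV3 library was above every PA-1 library, with a log2 difference of 0.94 (SE 0.07, adjusted p = 1.12e-07, edgeR's quasi-likelihood test), that is 1.91-fold. CENPE, a kinetochore motor of interest to the study, went the other way, at 39.0, 44.3 and 39.4 CPM in PA-1 and 24.7, 31.9 and 32.7 CPM in SK-OV3 (1.38-fold, adjusted p = 0.00119 by the same test). Centromere proteins as a group were divided, with 8 of 22 higher in SK-OV3, 11 higher in PA-1 and a median of -0.19. CENPB, which binds centromeric satellite DNA, was the one member past 4-fold (304, 286 and 287 CPM against 39.0, 34.3 and 37.5 CPM), and CENPH (3.07-fold) was the furthest on the PA-1 side.

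Proliferation genes were compared with all genes tested, of which 24.9% reached a 4-fold difference in either direction. Genes of the S phase had a median of 0.05 over 43 genes with 2 and 1 past 4-fold in SK-OV3 and PA-1, and those of the G2 and M phases had a median of 0.10 over 54 genes with 1 and 0. Their summed levels were 2249.7 to 2349 and 5314 to 5436 CPM in PA-1 and 2225 to 2285 and 5947 to 6151 CPM in SK-OV3. Those past 4-fold were CCNE2 (cyclin E2, 7.68-fold), RRM2, a subunit of ribonucleotide reductase (4.29-fold), and GAS2L3 (4.07-fold) in SK-OV3, and RAD51AP1 (4.09-fold) in PA-1. MKI67, the Ki-67 antigen, stood at 212, 246 and 263 CPM in SK-OV3 and 57.7, 61.5 and 66.2 CPM in PA-1 (3.89-fold), while TOP2A differed by 1.43-fold.

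Mismatch repair removes errors left by replication. Of its 12 genes tested, 8 passed the test with higher counts in PA-1 and 1 did so in SK-OV3 (median log2 difference -0.62). A 4-fold difference was reached by 1 member only, with PA-1 the higher line. A level of at least 1 CPM was found for all 12 genes in PA-1, but for 11 of them in SK-OV3. Among members with smaller differences, PMS1 was 2.87-fold and MSH6 1.67-fold higher in PA-1. PCNA, the sliding clamp of replication, was 1.90-fold higher in SK-OV3.

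Of 45 chromatin regulators tested, 17 were called higher in SK-OV3 and 23 in PA-1, with a median of -0.24. At least 4-fold differences were found for 3 and 5 of the 45, a smaller share than the 24.9% of all genes tested. Among subunits of the SWI/SNF remodelling complex, SMARCC1 and SMARCA2 differed in opposite directions. SMARCC1 (BAF155) stood at 240.0, 256 and 266 CPM in PA-1 and 14.5, 19.9998 and 16.3 CPM in SK-OV3. SMARCA2, one of the ATPases of the complex, stood at 0.378, 0.267 and 0.455 CPM in PA-1 and 27.7, 30.1 and 30.1 CPM in SK-OV3. The alternative ATPase SMARCA4 overlapped between the lines at 194 ± 16.7 and 196 ± 6.24 CPM. Among the enzymes of DNA methylation, TET1, which oxidizes methylcytosine, was 15.6-fold higher in PA-1 and TET2 4.04-fold higher in SK-OV3, and DNMT3A was 5.45-fold higher in PA-1 (78.8 ± 6.76 against 14.5 ± 1.41 CPM). EZH2, the methyltransferase of Polycomb, was 2.06-fold higher in PA-1.

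Interferon-induced genes are switched on by the ISGF3 complex, which includes STAT2 and IRF9, at a promoter element whose core reads GAAA, any 2 bases and GAAA again. This group was almost entirely higher in SK-OV3. Of 49 tested, 45 were higher in SK-OV3, 30 by at least 4-fold, and 2 in PA-1, with a median of 3.51 (1.82 over the 36 with 10 counts in every library). MX1, a GTPase against influenza viruses, stood at 199, 192 and 201 CPM in SK-OV3 and 0, 0 and 0.0853 CPM in PA-1. IFI27 stood at 253, 219.6 and 211 CPM against 0.698, 0.624 and 0.882 CPM, and APOL1 at 194, 182 and 180.0 CPM against 0.320, 0.111 and 0.171 CPM. These were near silent in PA-1 and abundant in SK-OV3. RSAD2 (viperin, 18.1 ± 0.990 CPM) had no count in PA-1, and the synthetases of the second messenger for RNase L were 136-fold (OAS1), 97.6-fold (OAS2) and 58.6-fold (OAS3) higher in SK-OV3. STAT2 was 2.76-fold and IRF9 4.004-fold higher in SK-OV3. Members with an intermediate level in PA-1 included ISG15 (58.2 ± 5.42 against 197 ± 20.4 CPM), IFIT1 (31.6 ± 1.498 against 64.2 ± 1.70 CPM) and IFIT3 (9.70 ± 0.238 against 113 ± 2.97 CPM). BST2 (tetherin) and IFI16, a DNA sensor, were 1.44-fold and 1.33-fold higher in PA-1, and IRF7 overlapped at 36.4 ± 1.03 and 39.6 ± 3.02 CPM.

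Because these members moved together, their promoters are shown around the matched core, from RefSeq on GRCh38.p14, 5′ to 3′ on the strand of the gene, with every match to that core, or to its reverse complement, in capitals. Among members that hold the core, IFI27, IFI44, OAS3, SAMD9 and GBP1 were chosen as strongly higher members and BST2 as a member higher in PA-1. Strongly higher members without a match are not shown.
IFI27 (chr14:94110616-94110675, plus strand): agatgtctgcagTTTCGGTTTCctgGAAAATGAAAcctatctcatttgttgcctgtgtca
IFI44 (chr1:78649746-78649788, plus strand): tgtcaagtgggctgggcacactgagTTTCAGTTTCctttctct
OAS3 (chr12:112938437-112938473, plus strand): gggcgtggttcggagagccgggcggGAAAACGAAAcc
SAMD9 (chr7:93118081-93118140, minus strand): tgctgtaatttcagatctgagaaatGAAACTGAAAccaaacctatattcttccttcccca
GBP1 (chr1:89065301-89065360, minus strand): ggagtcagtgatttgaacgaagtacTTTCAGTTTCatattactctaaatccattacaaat
BST2 (chr19:17405720-17405779, minus strand): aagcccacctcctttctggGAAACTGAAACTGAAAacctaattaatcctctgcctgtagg

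The core was found on either strand within 250 bases before the start of 19 of the 34 interferon-induced genes with a promoter sequence (55.9%), against 2.42% of 11631 tested genes and 3.07% of all 27305 promoters in the table. Of the 21 members with a promoter that were at least 4-fold higher in SK-OV3, 10 held it, and BST2 holds it too. A match is a description of the sequence and was not tested as a binding site. The group was listed from genes that use this core, so its share was not a test of the difference between the lines. IFI44 stood at 41.2, 43.2 and 42.3 CPM in SK-OV3 and 0.262, 0.111 and 0.171 CPM in PA-1, SAMD9 at 41.8, 50.6 and 48.2 CPM and 0.552, 1.11 and 0.768 CPM, and GBP1 at 6.62, 6.84 and 6.55 CPM with 1 count in PA-1.

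Antigen presentation by HLA class I followed the same direction, with 19 of 25 genes higher in SK-OV3, 3 in PA-1 and a median of 1.90. B2M, the light chain shared by class I molecules, stood at 1589, 1509 and 1475 CPM in SK-OV3 and 163, 157 and 138 CPM in PA-1. The immunoproteasome subunits PSMB8 (106-fold) and PSMB9 (129.7-fold), the peptide transporter TAP1 (10.2-fold), the peptidase ERAP2 (86.1-fold) and NLRC5, the activator of class I genes (45.4-fold), were higher in SK-OV3. HLA-B (11.4-fold) and HLA-C (2.75-fold) shared the direction, though reads of HLA genes are divided among similar copies and depend on alleles. CD74, the class II invariant chain, was 24.7-fold higher in PA-1, without CIITA, the class II activator, which was at 0 in PA-1.

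Of 36 cytokines, chemokines and NF-kB feedback genes, 29 were higher in SK-OV3 (20 by at least 4-fold) and 7 in PA-1, with a median of 2.68 (1.71 over the 23 with 10 counts in every library). CXCL1 stood at 357, 356 and 359.6 CPM in SK-OV3 and 0.378, 0.312 and 0.370 CPM in PA-1, and CXCL8 (interleukin 8) at 164, 169.6 and 165 CPM against 0, 0.0892 and 0.284 CPM. IL6 stood at 32.3, 36.3 and 34.1 CPM against 0.320, 0.290 and 0.0569 CPM. Each of these secreted factors was near the detection floor in PA-1. IL1R1 (465-fold), IL1A (8.38-fold) and PTGS2 (cyclooxygenase 2, 9.89 ± 0.693 CPM) were also higher in SK-OV3. In PA-1 the neutrophil chemokines CXCL5 (62.6-fold) and CXCL6 (15.7-fold), the adhesion molecule ICAM1 (27.3-fold) and the alternative NF-kB subunits NFKB2 (3.58-fold) and RELB (2.22-fold) were higher.

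Serine synthesis, one-carbon metabolism and asparagine synthesis supply amino acids and nucleotide precursors, and ATF4 switches on their genes under amino acid shortage through an element whose core reads TGATG, any base and AA. This group was higher in PA-1. Of 30 genes, 25 were higher in PA-1, 16 by at least 4-fold, and 3 in SK-OV3, with a median of -2.10 and summed levels of 8240.2 to 8424 CPM against 2782 to 2829 CPM. ASNS, asparagine synthetase, stood at 1394, 1384 and 1378 CPM in PA-1 and 17.5, 16.6 and 15.1 CPM in SK-OV3, an 84.4-fold difference. PHGDH, the first enzyme of serine synthesis, stood at 754, 739 and 713 CPM against 17.2, 16.9 and 16.5 CPM. PCK2, the mitochondrial PEP carboxykinase, stood at 249.7, 243 and 274 CPM against 12.61, 11.5 and 11.3 CPM. The replicates within each line were close, and the lines far apart. PSAT1 (8.31-fold), MTHFD2 (6.07-fold), SHMT2 (4.33-fold), CBS (9.61-fold) and PYCR1 (9.12-fold) were higher in PA-1, as were the stress markers CHAC1 (35.6-fold), TRIB3 (7.05-fold) and DDIT3 (4.53-fold). ATF4 itself was 1.48-fold higher in PA-1. The transporters SLC7A5 (1.31-fold) and SLC7A1 (1.27-fold) and the proline enzyme ALDH18A1 (1.43-fold) were higher in SK-OV3, and SLC7A11, the cystine transporter, overlapped at 230.1 ± 5.88 and 245 ± 20.3 CPM. DMEM and RPMI differ in their amino acids, and the part of the medium in these differences was not tested.

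The promoters of ASNS and CHAC1, chosen among members that hold that core, are shown for the same reason and from the same source. The match to that core, or to its reverse complement, is in capitals.
ASNS (chr7:97872444-97872501, minus strand): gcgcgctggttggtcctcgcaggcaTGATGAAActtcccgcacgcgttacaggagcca
CHAC1 (chr15:40953237-40953294, plus strand): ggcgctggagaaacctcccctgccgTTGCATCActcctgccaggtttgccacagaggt

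The letters were found on either strand within 250 bases before the start of 5 of 25 members with a promoter sequence, against 1.47% of tested genes and 3.19% of all promoters, and in 3 of the 12 members that were at least 4-fold higher in PA-1. Here too the share over the group was not a test of the difference between the lines. CHAC1, a glutathione-degrading enzyme, stood at 71.1, 72.6 and 72.6 CPM in PA-1 and 2.43, 1.51 and 2.13 CPM in SK-OV3, beside the ASNS values above.

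Among genes of glucose metabolism, some isoforms differed in the same direction and others in opposite directions. SLC2A3 (GLUT3), a neuronal glucose transporter, stood at 1393, 1416 and 1392 CPM in PA-1 and 0.227, 0.451 and 0.104 CPM in SK-OV3, a 5371-fold difference, and SLC2A1 (GLUT1) was 1.86-fold higher in PA-1. LDHA stood at 3107, 3042 and 3033 CPM in SK-OV3 and 785, 756 and 747 CPM in PA-1, whereas LDHB stood at 1232, 1156 and 1077 CPM in PA-1 and 374, 372 and 351 CPM in SK-OV3. These subunits of lactate dehydrogenase thus differed in opposite directions. PFKM (6.24-fold), ENO2 (9.12-fold), ALDOC (7.60-fold) and PFKFB4 (18.99-fold) were higher in PA-1, and PFKP (3.76-fold) and PKM (1.96-fold) in SK-OV3. Over 25 genes, 16 were higher in PA-1 and 7 in SK-OV3 (median -0.90). Cholesterol genes were balanced, with 12 of 25 higher in SK-OV3, 11 in PA-1, a median of -0.03 and summed levels of 1468 to 1503 and 1476 to 1501 CPM in PA-1 and SK-OV3. EBP (4.55-fold) and SREBF2 (2.29-fold) were higher in PA-1.

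Antioxidant and detoxification genes, many of them targets of NRF2, were more often higher in SK-OV3 (24 of 37, 12 by at least 4-fold, median 0.96) than in PA-1 (5). FTH1, the heavy chain of ferritin, stood at 10771, 9567 and 9452 CPM in SK-OV3 and 1521, 1470.1 and 1703 CPM in PA-1, while the light chain FTL was 1.59-fold higher in PA-1. NQO1, a quinone reductase, stood at 403, 383 and 368 CPM against 49.6, 51.2 and 49.5 CPM. GPX1, a glutathione peroxidase of nearly every cell type, stood at 136, 118 and 118 CPM in SK-OV3 and only 0.494, 0.201 and 0.427 CPM in PA-1. AKR1C1 (102-fold), AKR1C2 (43.1-fold) and AKR1C3 (39.8-fold), near-identical aldo-keto reductases whose reads are hard to divide, and ALDH3A1 (154-fold) were higher in SK-OV3. GPX3 (114-fold) and the drug exporter ABCG2 (44.8 ± 2.14 against 0.864 ± 0.400 CPM) were higher in PA-1. TXNRD1 (2.69-fold) and HMOX1 (2.01-fold) were higher in SK-OV3, and GCLM overlapped between the lines.

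Genes of adhesion to the matrix also went both ways. LAMA3 and LAMB3, laminin chains of epithelial basement membranes, were higher in SK-OV3. LAMB3 stood at 367, 383 and 375 CPM in SK-OV3 and 0.669, 0.267 and 1.02 CPM in PA-1. LAMA3 stood at 149, 162 and 161 CPM with 1 count in PA-1. Their receptor subunits ITGB4 (129-fold) and ITGA3 (9.17-fold) shared the direction, and ITGB6 (29.7 ± 1.46 CPM) had no count in PA-1. PA-1 expressed the embryonic laminin chain LAMA1 (114, 107 and 126 CPM against 0.581, 0.849 and 0.390 CPM), ITGA7 (31.1-fold) and the cartilage collagens COL2A1 (150.2-fold), COL9A3 (309-fold) and COL11A1 (184-fold). The basement membrane collagens were divided by chain, with COL4A3 (49.2 ± 4.31 CPM) in SK-OV3 only and COL4A5 (12.3-fold) and COL4A6 (565-fold) higher in PA-1. Over the 53 genes, 30 were higher in SK-OV3 and 19 in PA-1 (median 0.71).

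Of 26 S100 and annexin genes, which encode calcium-binding proteins, 20 were higher in SK-OV3 and 5 in PA-1 (median 1.84). S100A6 stood at 1494, 1172 and 1145 CPM in SK-OV3 and 0.378, 0.513 and 0.569 CPM in PA-1, a 2611-fold difference. S100A2 (90.7-fold), S100A4 (11.63-fold), ANXA4 (29.4-fold) and ANXA2 (3.21-fold) went the same way, and ANXA5 was 1.43-fold higher in PA-1. Among collagenases and stromelysins, MMP1 stood at 499, 508 and 497 CPM in SK-OV3 and 0.0581, 0 and 0.199 CPM in PA-1, with MMP7 (123-fold) and MMP10 (81.2-fold) beside it on chromosome 11.

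A small part of the large differences was shared by neighbours on a chromosome. Over all genes tested, 4002 (24.9%) were called at least 4-fold in either direction. Across the genome, 30 runs of at least 5 neighbouring tested genes were called at least 4-fold in the same direction, holding 197 genes, and 23 of the runs (159 genes) were higher in SK-OV3 and 7 (38 genes) in PA-1. The longest was the HOXB cluster (12 genes, chr17:48133440-48729178, with SKAP1 and antisense RNAs, uncertain without strand, among them), followed by protocadherins on chromosome 5 (11 genes), the genes beside ERBB2 (10), the HOXD cluster (10, chr2:176092891-176190907) and the pregnancy-specific glycoproteins on chromosome 19 (10, from PSG3 to CD177). Others held the keratins from KRT80 to KRT5 on chromosome 12, the guanylate-binding proteins from GBP3 to GBP5 on chromosome 1, the matrix metalloproteinases from MMP7 to MMP13 on chromosome 11, the interleukin receptors from IL1R2 to IL18R1 on chromosome 2, MX2 and MX1 on chromosome 21, and APOL1, APOL2, APOL3 and APOL4 on chromosome 22. The PA-1 runs were shorter. One on chromosome 12 from TSPAN9 to FGF23 (6 genes, chr12:3077355-4379728) held CCND2 and TIGAR, the next from GALNT8 to VWF held NTF3, and one on chromosome 15 (chr15:23643549-24988232) held MAGEL2, NDN, SNRPN, SNURF and PWAR5, genes of the imprinted Prader-Willi region. Genes in the protocadherin, PSG, SPANX, HLA and zinc finger runs resemble their neighbours, and RSEM may spread the reads of one over several.

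By chromosome, the medians of the log2 difference lay within 0.17 of 0 on most, and chromosome 7 stood apart at -0.74. Of its 750 tested genes, 490 (65.3%) were called higher in PA-1 against 158 (21.1%) in the other direction, and each of 10 blocks of consecutive genes had a median between -1.10 and -0.45. Chromosome X (-0.31), chromosome 13 (-0.30), chromosome 20 (0.27) and chromosome 21 (0.52) followed. Genes of chromosome 7 described here went both ways. ASNS, PEG10, MEST, PTN, PTPRZ1, EZH2, HOXA4 and HOXA7 were higher in PA-1, while AHR, CLDN4 (1.35-fold), EGFR, IL6, MET and SAMD9 were higher in SK-OV3.

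**Figure D5:**
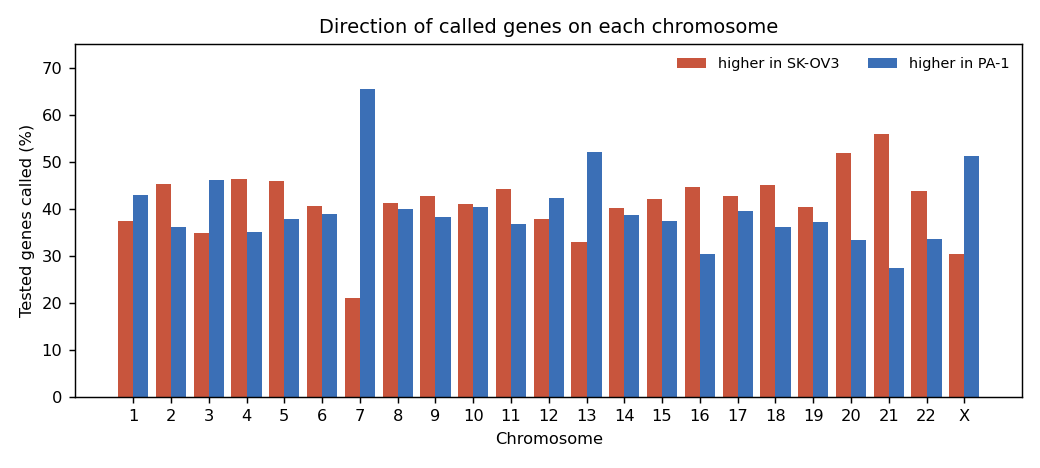
Percentage of the tested genes of each chromosome called higher in SK-OV3 (red) and in PA-1 (blue). On chromosome 7, 65.3% were higher in PA-1 and 21.1% in SK-OV3, while the shares over all genes were 40.2% and 40.1%.

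Paralog pairs were called in the same direction more often than in opposite directions. They are read beside all genes tested, of which 40.1% were called higher in SK-OV3 and 40.2% in PA-1. With such shares many pairs of unrelated genes would also be called in opposite directions, and an excess over them was not tested. In 50 listed pairs, 16 were called in opposite directions and 25 in the same direction. The 25 include CD44 with CD24, which are not paralogs. In 14 of the 50, the member with the higher level per length changed between the lines (RPKM, that is CPM divided by the exon length in kilobases). Opposite differences of at least 4-fold in both members were found for LAMA1 with LAMA3 and for the orphan nuclear receptors NR2F1 (11.7-fold higher in PA-1) and NR2F2 (109-fold higher in SK-OV3). LDHB led LDHA in PA-1 (387 against 123 RPKM), and LDHA led in SK-OV3 (493 against 123 RPKM). CLDN6 led CLDN4 in PA-1 (230.0 against 5.70 RPKM) and CLDN4 led in SK-OV3 (7.70 against 0.407 RPKM). The lactate exporter SLC16A3 passed SLC16A1 in SK-OV3 (22.9 against 14.4 RPKM, after 9.13 against 38.9 RPKM in PA-1), and ID1 passed ID4 (276 against 64.3 RPKM, after 77.7 against 166 RPKM). SMARCA2 and SMARCA4 kept their order, with SMARCA4 ahead in both lines (12.3 and 12.4 RPKM).

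Among genes with a matched exon length, the most abundant RNAs per length were partly shared. The 1847 symbols without a match could not be ranked. Ribosomal RNA genes, with 7.94% to 15.005% of a library's counts, are not among those named. Other genes with symbols of the mitochondrial genome (MT-) held 0% of the counts. In PA-1 they were EEF1A1 (2837 RPKM), FTL (1933), GAPDH (1874), RPL41 (1693), RPS2 (1691), RPS12 (1501), RPL13A (1145), H3F3AP4 (1134), HMGA1 (1088) and ACTG1 (1059 RPKM). In SK-OV3 they were FTH1 (4892 RPKM), TMSB10 (2733), EEF1A1 (1711), ACTG1 (1548), S100A6 (1308), FTL (1213), H3F3AP4 (1065), RPL41 (842), HSP90AA1 (798) and VIM (795 RPKM). HMGA1, an architectural chromatin protein of embryonic cells, was 3.43-fold higher in PA-1, and S100A6, abundant in SK-OV3, was at only 0.501 RPKM in PA-1. H3F3AP4 is a processed pseudogene of a histone gene, and its reads may belong to the parent gene.

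Among 20 long noncoding RNAs, 9 were higher in SK-OV3 and 9 in PA-1 (median 0.12). UCA1, known from bladder carcinoma, stood at 73.8, 72.1 and 71.0 CPM in SK-OV3 with 2 counts in PA-1. NEAT1, the scaffold of paraspeckles, was 2.33-fold higher in SK-OV3. The snoRNA hosts GAS5 (2.72-fold) and SNHG1 (3.18-fold) and MIAT (22.8-fold) were higher in PA-1. MEG3, a maternally expressed RNA, stood at 2.79, 1.18 and 1.79 CPM in PA-1 and 0, 0.0530 and 0.0519 CPM in SK-OV3. MALAT1 stood at 455, 295 and 297 CPM in PA-1 and 513, 469 and 503 CPM in SK-OV3.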

How the data were processed

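RNA of 3 PA-1 and 3 SK-OV3 libraries from cells given DMSO was analysed. The table deposited by the authors holds RSEM's expected counts for each symbol, not normalized between libraries, and per the submitters' processing notes the tools included Bowtie2 2.1.0 and RSEM 1.2.15 with the hg38 build. The annotation they used is not given in the sources used here. Whether the counting used the strand that the protocol marks is not stated, so that antisense and overlapping genes are uncertain.

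Expected counts were rounded to whole numbers, filtered with filterByExpr by line, scaled by TMM and tested in R 4.3.3 with edgeR 4.0.16 (quasi-likelihood test, Benjamini-Hochberg adjustment over 16070 genes). The standard error is the absolute log2 difference divided by the square root of F. Positions and exon lengths came from GENCODE on GRCh38, which matched 23900 symbols directly, 25 as current and 703 as older symbols, and left 1847 unmatched. A gene with no count in one line was given a lower bound of its fold, with 3 counts per library as the floor. Counts were also simulated with 1 dispersion for all genes. Over 16031 genes, 67, 65 and 64 were changed by 1.5, 2 and 4-fold, and 79.1%, 92.3% and 100% of these were called. In the data 80.3% of the genes were called, so that the simulated shares need not hold for this comparison.

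Gene groups, paralog pairs and the study genes (such as ATAD2, CENPE and CDKN1A) were listed with earlier results of these data known. Named genes were the 15 largest differences in each direction among genes with an adjusted p under 0.05, at least 20 CPM in the higher line and libraries that did not overlap, those with no count in one line and at least 20 CPM in the other, up to 5 called members of each group in each direction, markers and members against the majority, the 10 highest per length in each line, and members of runs and paralog pairs. A few further genes were named after their values were seen, and some that the rule names are not reported here. Runs were at least 5 neighbouring tested genes called at least 4-fold in 1 direction. Alternatives were DESeq2 1.42.0, limma 3.58.1 (voom), other scalings and filters, trends on GC content or length removed, a fold limit of 1.5, a replicate block and leaving out each library in turn. Counting intervals cover counting error only.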

Additional observations from a re-analysis of the deposited data

How the results depend on the processing

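Calling only differences beyond 1.5-fold left 4163 genes higher in SK-OV3 and 4248 in PA-1, since that test asks for more than a difference from 0. Requiring 10 counts in every library left 827 and 870 genes at least 4-fold higher in SK-OV3 and PA-1, since 13080 genes were then tested. Under the other alternatives the 4 counts stayed within 1.5 times their values. The share of calls higher in SK-OV3 stayed between 47.6% and 51.9%, no gene was called in the opposite direction, and the median of all genes moved by at most 0.06. Leaving out 1 library at a time gave 6243 to 6421 genes higher in SK-OV3, 6299 to 6508 higher in PA-1, and 2095 to 2221 and 1976 to 2090 at least 4-fold higher. The median of the Mullerian group turned to -0.13, that of the ligands to -0.22 and that of the cancer-testis genes to 2.77 with 10 counts in every library, where 12, 31 and 2 members remained. The same filter, which removes genes off in one line, moved the medians of the pluripotency genes to -0.88 (10 members), the HOX genes to 0.68 (4), the neural genes to -2.14 (11), the junction and epithelial regulator genes to 0.0063 (26), the mesenchymal genes to -0.95 (20), the interferon-induced genes to 1.82 (36), the cytokine group to 1.71 (23), the integrin, laminin and collagen genes to 0.45 (42), the genes beside ERBB2 to 1.11 (16), the genes of other cell types to -0.54 (4) and the long noncoding RNAs to -0.45 (14). That filter also gave 5.08 for the keratins (7), -1.12 for the imprinted genes (23) and 1.53 for the class I genes (22). It gave -1.19 for the receptor tyrosine kinases (29), 1.66 for the S100 and annexin genes (20) and -0.79 for the 9p21 genes (8). With no filter the medians of the Mullerian, cancer-testis, mesenchymal, 9p21 and long noncoding groups were 1.47, -1.01, -0.047, -0.48 and 0.51. Those of the pluripotency, HOX, keratin, imprinted, interferon-induced, receptor tyrosine kinase and other cell type groups were -3.82, 6.13, 5.95, -1.75, 3.22, -1.21 and -2.89. Removing the trend on length moved that of the CDK inhibitor, RB and E2F genes to 0.17. Other alternatives also moved some medians. Of 348 named genes, 22 lost and 7 gained a call under at least 1 alternative, and none was called in the opposite direction. NRG1, RB1 and SLC7A11 gained a call without SK-OV3 replicate 1, FOLR1 and HOXA2 without PA-1 replicate 2.

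Replicate numbers are shared by the lines, and the deviations of libraries with the same number correlated at 0.080, -0.024 and 0.017. Pairs with different numbers gave values from -0.062 to 0.043. With 3 libraries per line these values cannot tell whether libraries of the same number were handled together. With a replicate block 6397 genes were higher in SK-OV3 and 6433 in PA-1, 2078 and 1963 by at least 4-fold, and 12628 of the 12908 calls remained. Depth and counting error limit genes below 1 CPM, and genes off in one line have bounds, not fold changes.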

Other observations

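Families of genes with shared symbols were counted after their values had been seen, and they are given without a test. Of 79 tested genes for cytosolic ribosomal proteins (RPL and RPS), 74 were higher in PA-1 and 3 in the other line. The median log2 difference of this family was -1.04, and 3 members passed 4-fold in PA-1. Many of these genes have processed pseudogenes that take part of their reads. Of 17 host genes of small nucleolar RNAs (SNHG), 11 were higher in PA-1 and 2 in the other line (median -0.60).

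Of 47 tested clustered protocadherins, which give neurons their individual surface, 39 were higher in SK-OV3, 34 of them by at least 4-fold, and 5 in PA-1, with a median of 2.76. All 8 tested pregnancy-specific glycoproteins were at least 4-fold higher in SK-OV3, PSG1 at 22.6, 21.03 and 21.6 CPM with no count in PA-1 and PSG4 at 13.5 ± 1.44 CPM with 2 counts in PA-1. Of 496 tested zinc finger genes with ZNF symbols, 215 were higher in SK-OV3 and 136 in PA-1. At least 4-fold differences were found for 50 (10.1%) and 24 (4.84%), beside 12.8% and 12.1% of all genes tested. The 18 tested matrix metalloproteinases (MMP) were divided, with 11 higher in SK-OV3 and 6 in PA-1, and so were the 16 WNT ligands, with 7 and 6. Members of the protocadherin, PSG and zinc finger families resemble each other in sequence, and their separate counts are uncertain.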
